A study of Mus musculus with 4 samples.

Results

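Transcripts of 7 genes of the inflammasome and of pyroptosis were followed in inflamed mouse colon. They encode the sensors Nlrp6, Nlrp3 and Nlrp12, the protease caspase-1 (Casp1), and the pore-forming proteins gasdermin D (Gsdmd), gasdermin C2 (Gsdmc2) and gasdermin C4 (Gsdmc4). The genes were chosen by symbol, with their values in these data already known, and all 7 were among the 4121 genes listed in the deposited table. Distal colon came from mice labelled Elf4-KO, for the Ets family transcription factor gene Elf4, and from WT mice, with 2 samples each. All were C57BL/6 mice of 8 weeks that had received 3% DSS (dextran sulfate sodium, a sulfated polysaccharide that damages the colonic lining and sets off colitis), and both groups were taken at day 6. The labels do not say how Elf4 was disrupted, in which cells, or whether each sample was a separate animal.

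The table gives 1 FPKM value (fragments per unit of transcript length, adjusted for library size) for each genotype and no value per sample. Every FPKM value below is therefore the authors' combined value of a genotype, with no SD or n, and read depth is unknown. As only genes that passed the authors' filter are in the table, rose and fell rest on the authors' call, and genes outside it are not analysed here. Unless another value is given, the q of each gene named was 0.000372 in the authors' deposited table, the smallest it holds. Elf4 itself had 3.51 FPKM in Elf4-KO colon and 16.4 FPKM in WT colon, so 21.4% of the WT level was left in the combined value.

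An inflammasome is a protein complex that forms when a cytosolic sensor detects a microbial product or cell damage. The sensor recruits caspase-1, in most cases through the adaptor ASC (gene Pycard), and caspase-1 then matures the cytokines interleukin-1β and interleukin-18 and cuts gasdermin D, whose freed end forms membrane pores and can end in the lytic death called pyroptosis. In the gut, NLRP6 is known mainly from epithelial cells, including goblet cells, whereas NLRP3 and NLRP12 are known mainly from myeloid cells. Caspase-1 and gasdermin D are made in both, and the mouse gasdermin C genes are expressed in intestinal epithelium.

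Nlrp6, Gsdmc2 and Gsdmc4, known from epithelium, were lower in Elf4-KO colon, and Nlrp3 and Nlrp12, known from myeloid cells, were higher. Casp1 and Gsdmd, made in both, were lower. Of the 7 genes, 5 fell (Nlrp6, Casp1, Gsdmd, Gsdmc2 and Gsdmc4), in a table where 52.0% of all listed genes were lower in Elf4-KO colon. The other 2, Nlrp3 and Nlrp12, rose, against 48.0% of all listed genes. The 7 differences were all at least 4-fold. Of all listed genes, 24.5% were lower and 12.9% higher in Elf4-KO colon by as much or with a listed 0. Because the 7 genes were chosen from this comparison, these shares describe the table and test nothing.

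**Figure D1:**
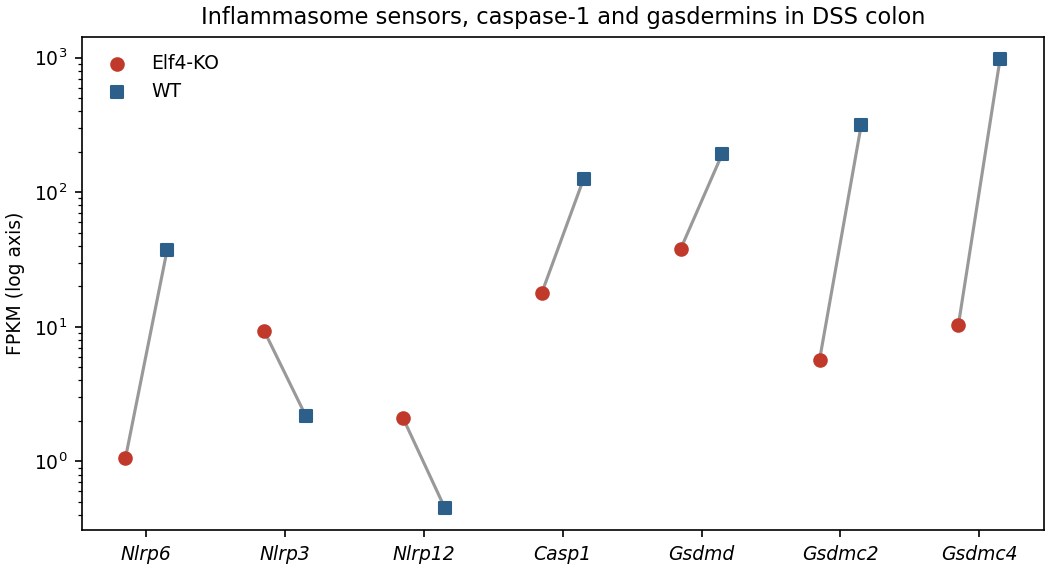
FPKM (log axis) of the 7 genes, with 1 point per genotype that combines 2 samples (circles, Elf4-KO; squares, WT) and a line joining the points of a gene. Nlrp6, Casp1, Gsdmd, Gsdmc2 and Gsdmc4 lie lower in Elf4-KO, by 5.10-fold for Gsdmd to 94.4-fold for Gsdmc4, while Nlrp3 and Nlrp12 lie higher.

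The order of the levels differed between the genotypes. In Elf4-KO colon Gsdmd was highest, at 38.0 FPKM, followed by Casp1, Gsdmc4, Nlrp3, Gsdmc2, Nlrp12 and Nlrp6, which was lowest at 1.06 FPKM. In WT colon Gsdmc4 was highest, at 975 FPKM, followed by Gsdmc2, Gsdmd, Casp1, Nlrp6, Nlrp3 and Nlrp12, lowest at 0.453 FPKM. Without values per sample it could not be determined which neighbours in these orders differ. The closest pair was Gsdmc4 and Nlrp3 in Elf4-KO colon, with a ratio of 1.11, while the widest step was 17.1 between Nlrp6 and Nlrp3 in WT colon.

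Among the sensors, Nlrp6 had 1.06 FPKM in Elf4-KO colon and 37.2 FPKM in WT colon, a 35.2-fold fall. Nlrp6 (ENSMUSG00000038745, chr7:140920902-140929192, plus strand, GRCm38) takes part in the control of mucus secretion and of the gut microbiota in mice. Its fold ranked 25 among the 2096 lower genes with a value above 0 in Elf4-KO colon. Nlrp3 (ENSMUSG00000032691, chr11:59541568-59566956, plus strand), the sensor of a broad range of danger signals in macrophages and neutrophils, went the other way. It had 9.31 FPKM in Elf4-KO colon and 2.17 FPKM in WT colon, a 4.29-fold rise. The 2 sensors thus exchanged places: Nlrp6 stood at 0.114 times the Nlrp3 level in Elf4-KO colon and at 17.1 times that level in WT colon.

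Nlrp12 (ENSMUSG00000078817, chr7:3218784-3249740, minus strand), known in mice as a restraint on inflammatory signaling in myeloid cells, had 2.10 FPKM in Elf4-KO colon and 0.453 FPKM in WT colon. This was a 4.63-fold rise, with q = 0.00384 in the authors' deposited table. Both levels were low, and the log2 ratio was 1.09 after adding 1 to each FPKM value but 2.21 without it. Nlrp3 exceeded Nlrp12 by a similar factor in both genotypes, 4.44 in Elf4-KO colon and 4.79 in WT colon.

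All 14 genes of a list of inflammasome sensors were in the table, and 11 were lower and 3 higher in Elf4-KO colon. Their median log2 ratio was -1.98, beside -0.76 for all listed genes, of which 52.0% were lower. Besides Nlrp3 and Nlrp12, the gene that rose was Mefv, which encodes pyrin, a sensor of bacterial toxins. Mefv had 8.00 FPKM in Elf4-KO colon and 3.98 FPKM in WT colon (q = 0.00671 in the authors' deposited table), and at 2.01-fold it lay just inside the authors' 2-fold limit. The NAIP proteins bind bacterial flagellin and secretion system proteins and then engage NLRC4. All 5 genes of this group fell, from 4.21-fold for Naip2 to 11.9-fold for Naip1, which had 6.58 FPKM in Elf4-KO colon and 78.4 FPKM in WT colon. Nlrc4 had 2.55 FPKM in Elf4-KO colon and 13.5 FPKM in WT colon.

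Nlrp9b, a sensor of rotavirus RNA in mouse intestinal epithelium, had 1.73 FPKM in Elf4-KO colon and 26.6 FPKM in WT colon. The cytosolic DNA sensor gene Aim2 had 12.9 FPKM in Elf4-KO colon and 70.8 FPKM in WT colon (q = 0.00542 in the authors' deposited table), but its locus in the table spans 2 other protein-coding genes, Ackr1 and Cadm3, so its value is uncertain. The low genes Nlrp1b, Nlrp10 and Nlrp1a fell 6.53-fold, 7.12-fold and 5.71-fold. For Nlrp10 and Nlrp1a, q was 0.00128 and 0.00542 in the authors' deposited table. Nlrp1a was at 0.123 FPKM in Elf4-KO colon and 0.702 FPKM in WT colon, and its log2 ratio of -0.60 became 0.16 when ratios were centred on the median of the table. The Naip genes are near copies of each other: between 19.1% (Naip2) and 36.8% (Naip5) of the distinct 50-base stretches in their annotated transcripts also occur in transcripts of another gene. No source used here says how the authors divided such reads.

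The summed level of the 14 sensors was 57.4 FPKM in Elf4-KO colon and 308 FPKM in WT colon. Nlrp3, Nlrp12 and Mefv together made up 33.8% of this sum in Elf4-KO colon and 2.14% in WT colon. Nlrp6 alone made up 1.84% in Elf4-KO colon and 12.1% in WT colon. The share of Aim2, whose value is uncertain, was 22.4% in Elf4-KO colon and 23.0% in WT colon. Naip1, Naip2, Naip5 and Naip6, which share stretches with other genes, made up 32.6% in Elf4-KO colon and 47.4% in WT colon. The sum and every share of it carry these limits. The summed sensor level was thus lower in Elf4-KO colon. Nlrp3, Nlrp12 and Mefv were grouped because they rose, so their larger share of a smaller sum follows from that choice.

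**Figure D2:**
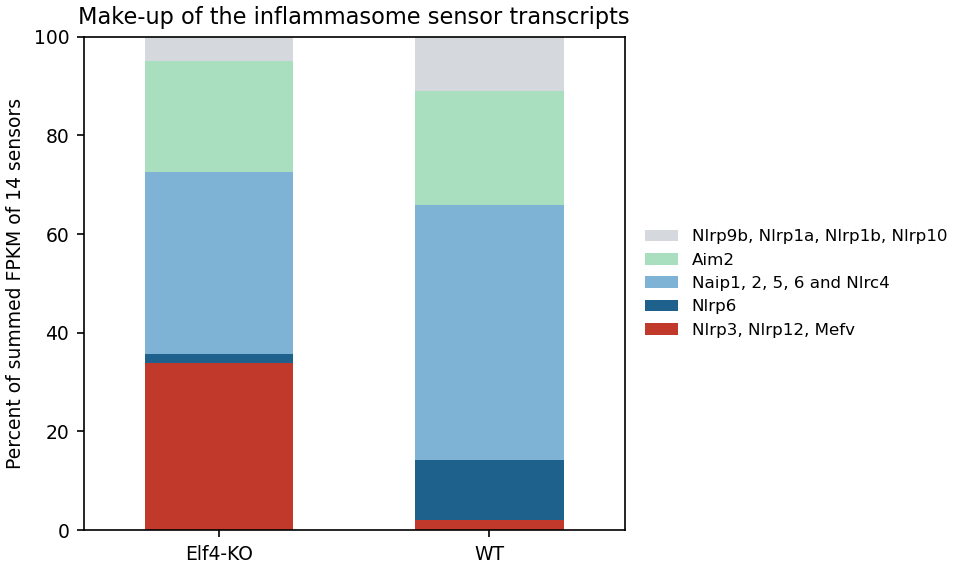
Percent of the summed FPKM of 14 inflammasome sensor genes contributed by each group of genes, with 1 bar per genotype (Elf4-KO left, WT right). The lowest block, Nlrp3, Nlrp12 and Mefv, takes 33.8% in Elf4-KO and 2.14% in WT, and the block above it, Nlrp6, takes 1.84% in Elf4-KO and 12.1% in WT. The lowest block was grouped by its rise, so its larger share in Elf4-KO follows from that choice.

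Promoter sequences are shown because the tissue is labelled as a knockout of Elf4, an Ets factor, and proteins of that family bind sites with a GGAA core. RefSeq sequences on GRCm38.p6, from 250 bases before to 50 bases after a gene's start, were matched for 4 of the 7 genes. The 250 bases before the start are printed, with each GGAA or its reverse complement TTCC in capitals, on the gene's own strand. They lie at chr7:140920652-140920901 (plus strand) for Nlrp6, chr11:59541319-59541568 (plus) for Nlrp3, chr7:3249741-3249990 (minus) for Nlrp12 and chr9:5298267-5298516 (plus) for Casp1. Nlrp3 has 2 annotated starts, of which the one nearest the locus in the table is shown.
Nlrp6: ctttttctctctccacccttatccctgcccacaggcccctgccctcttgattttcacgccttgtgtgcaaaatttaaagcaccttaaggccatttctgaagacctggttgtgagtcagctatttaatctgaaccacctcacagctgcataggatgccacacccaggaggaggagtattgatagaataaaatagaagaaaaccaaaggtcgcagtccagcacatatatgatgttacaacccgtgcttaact
Nlrp3: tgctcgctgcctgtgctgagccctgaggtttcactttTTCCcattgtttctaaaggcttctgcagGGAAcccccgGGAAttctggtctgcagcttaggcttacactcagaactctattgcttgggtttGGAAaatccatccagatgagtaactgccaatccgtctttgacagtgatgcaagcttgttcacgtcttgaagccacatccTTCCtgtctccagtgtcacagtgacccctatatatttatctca
Nlrp12: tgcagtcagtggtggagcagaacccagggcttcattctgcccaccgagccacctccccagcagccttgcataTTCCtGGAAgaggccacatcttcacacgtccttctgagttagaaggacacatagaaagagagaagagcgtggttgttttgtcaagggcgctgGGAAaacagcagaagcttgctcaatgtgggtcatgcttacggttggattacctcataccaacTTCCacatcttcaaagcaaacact
Casp1: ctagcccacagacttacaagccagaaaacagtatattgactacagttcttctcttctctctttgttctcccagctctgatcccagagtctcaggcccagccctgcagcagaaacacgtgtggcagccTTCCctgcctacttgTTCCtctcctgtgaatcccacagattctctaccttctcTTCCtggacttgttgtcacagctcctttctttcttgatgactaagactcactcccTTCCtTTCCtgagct

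In the full window, counting both strands, GGAA occurred 0 times for Nlrp6, 6 times for Nlrp3, 4 times for Nlrp12 and 7 times for Casp1. Of 32851 promoter windows of the same length, 96.0% held at least 1 GGAA and the median number was 3. The longer Ets site CCGGAAG, which contains GGAA, was in none of the 4 windows and in 8.86% of all windows. An interferon response motif, GAAA repeated after any 2 bases, was also in none of the 4 and in 3.44% of all windows. These matches describe letters in a window and do not show binding, and their relation to the FPKM values was not tested.

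Casp1 and Gsdmd, the shared effector steps of the pathway, fell less than Nlrp6. Casp1 (ENSMUSG00000025888, chr9:5298517-5307265, plus strand), the protease that matures interleukin-1β and interleukin-18, had 18.0 FPKM in Elf4-KO colon and 126 FPKM in WT colon. This was a 6.98-fold fall, with 14.3% of the WT level left. Gsdmd (ENSMUSG00000022575, chr15:75862339-75867404, plus strand), the pore former that caspase-1 cuts, had 38.0 FPKM in Elf4-KO colon and 194 FPKM in WT colon, a 5.10-fold fall to 19.6% of the WT level. Their folds ranked 533 and 755 among the 2096 lower genes. No 50-base stretch of the annotated transcripts of Casp1, Gsdmd, Nlrp6 or Nlrp3 occurs in another gene, and for Nlrp12 0.467% do.

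The adaptor gene Pycard had 19.2 FPKM in Elf4-KO colon and 90.7 FPKM in WT colon, a 4.72-fold fall (q = 0.00156 in the authors' deposited table). Of 14 adaptor and regulator genes, 4 were in the table and all 4 were lower (median log2 ratio -1.95). Of all listed genes, 52.0% were lower (median -0.76), and 4 genes are too few to set against that share. Serpinb1a, an inhibitor of neutrophil serine proteases, had 61.8 FPKM in Elf4-KO colon and 546 FPKM in WT colon. The interferon-induced GTPase genes Gbp2 and Irgm1 fell 3.32-fold and 2.54-fold. The other 10, among them Nek7, Txnip, P2rx7 and Panx1, were not in the table.

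Of 8 caspase genes, 4 were in the table and all 4 were lower (median log2 ratio -2.41), beside 52.0% of all listed genes (median -0.76). These 4, which include Casp1, are too few to set against that share. Casp8, the initiator of death receptor signaling, had 26.1 FPKM in Elf4-KO colon and 114 FPKM in WT colon. Casp4, the mouse sensor of cytosolic lipopolysaccharide also called caspase-11 and the neighbour of Casp1 on the chromosome, was not in the table. Outside the list and chosen after their values were seen, Casp2 fell 2.07-fold and Casp14 fell 5.81-fold, with q of 0.00406 for Casp2 and 0.000998 for Casp14 in the authors' deposited table.

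The gasdermin C genes had the largest falls of the 7. Gsdmc4 (ENSMUSG00000055748, chr15:63891264-63912297, minus strand) had 10.3 FPKM in Elf4-KO colon and 975 FPKM in WT colon, a 94.4-fold fall to 1.06% of the WT level. Gsdmc2 (ENSMUSG00000056293, chr15:63824346-63845177, minus strand) had 5.69 FPKM in Elf4-KO colon and 316 FPKM in WT colon, a 55.4-fold fall to 1.80% of the WT level. These folds ranked 3 and 10 among the 2096 lower genes. Gsdmc4 exceeded Gsdmc2 by 1.81 times in Elf4-KO colon and 3.09 times in WT colon. Set against Gsdmd, Gsdmc4 stood at 0.271 times its level in Elf4-KO colon and 5.02 times its level in WT colon.

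Gasdermin C genes lie next to each other on chromosome 15, and the other listed genes of this cluster also fell. Gsdmc was listed at 0 in Elf4-KO colon and had 0.909 FPKM in WT colon, so no fold was computed. Gsdmcl2, annotated by RefSeq as a transcribed pseudogene, starts at 63880707 and ends at 63890512 on the plus strand, 0.8 kb from Gsdmc4. It had 0.568 FPKM in Elf4-KO colon and 42.1 FPKM in WT colon, a 74.1-fold fall. This fold rests on a low Elf4-KO level, and after adding 1 to each FPKM value the log2 ratio was -4.78. Gsdmc3, which lies between Gsdmc2 and Gsdmc4, was not in the table.

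The coding sequences are shown because the similarity of these genes limits how well their reads can be told apart. Gsdmc4 and Gsdmc2 each have 1440 coding bases in GENCODE M21, of which 93.8% of the aligned bases are identical, and Gsdmc2 and Gsdmc3 are 97.1% identical. The first 180 coding bases are printed from the annotated transcripts, at chr15:63902751-63902930 (minus strand) for Gsdmc4 and chr15:63835764-63835943 (minus strand) for Gsdmc2 on GRCm38. Capitals mark the bases that differ, which are 2 of 180.
Gsdmc4: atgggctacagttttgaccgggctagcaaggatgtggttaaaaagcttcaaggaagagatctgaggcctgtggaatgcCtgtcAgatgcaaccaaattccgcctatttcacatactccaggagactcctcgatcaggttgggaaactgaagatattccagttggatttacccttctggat
Gsdmc2: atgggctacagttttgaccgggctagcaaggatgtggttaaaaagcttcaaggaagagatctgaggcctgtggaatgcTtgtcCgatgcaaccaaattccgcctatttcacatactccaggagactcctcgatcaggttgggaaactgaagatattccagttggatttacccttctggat

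Of the distinct 50-base stretches in the annotated transcripts, 39.0% of those of Gsdmc4 and 51.3% of those of Gsdmc2 also occur in another gene. For Gsdmc4, 29.8% occur in Gsdmc2 and 28.8% in Gsdmc3. No source used here gives the read length or the treatment of reads with several matches, so the split of reads between Gsdmc2, Gsdmc3 and Gsdmc4 is uncertain. Gsdmcl2 shares 22.5% of its stretches with other genes, but none with Gsdmc2 or Gsdmc4.

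Of 11 gasdermin and membrane rupture genes, 5 were in the table, of which 4 fell and 1 rose (median log2 ratio -2.32). Among all listed genes 52.0% fell and 48.0% rose (median -0.76). The 5 genes, which include Gsdmd, Gsdmc2 and Gsdmc4, are too few to set against these shares. The gene that rose was Ninj1, whose protein ruptures the plasma membrane after gasdermin pores have formed. Ninj1 had 129 FPKM in Elf4-KO colon and 38.1 FPKM in WT colon, a 3.39-fold rise. Gsdme and the gasdermin A genes were not in the table.

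The cytokine and receptor genes of the interleukin-1 and interleukin-18 list were split. Il18, the caspase-1 substrate known from epithelium, had 13.6 FPKM in Elf4-KO colon and 249 FPKM in WT colon, an 18.3-fold fall. Its locus in the table also spans the genes Bco2 and Tex12, so this value is uncertain. Il1b, the substrate known from myeloid cells, had 262 FPKM in Elf4-KO colon and 77.6 FPKM in WT colon, a 3.37-fold rise. Il1b stood at 19.2 times the Il18 level in Elf4-KO colon and at 0.311 times that level in WT colon.

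Of 9 genes of this list, 8 were in the table, and 5 of them rose and 3 fell (median log2 ratio 1.66). Among all listed genes 48.0% rose and 52.0% fell (median -0.76). Il1r2, the decoy receptor for interleukin-1, had 157 FPKM in Elf4-KO colon and 6.83 FPKM in WT colon, a 23.0-fold rise. Il1a, Il1r1 and Il18rap rose 5.73-fold, 3.79-fold and 3.53-fold. Il18r1 fell 2.90-fold and Il18bp, which encodes a soluble inhibitor of interleukin-18, fell 2.55-fold. Their q in the authors' deposited table were 0.00335 for Il18r1 and 0.0204 for Il18bp. The locus of Il18bp in the table also spans Numa1, so its value is uncertain.

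**Figure D3:**
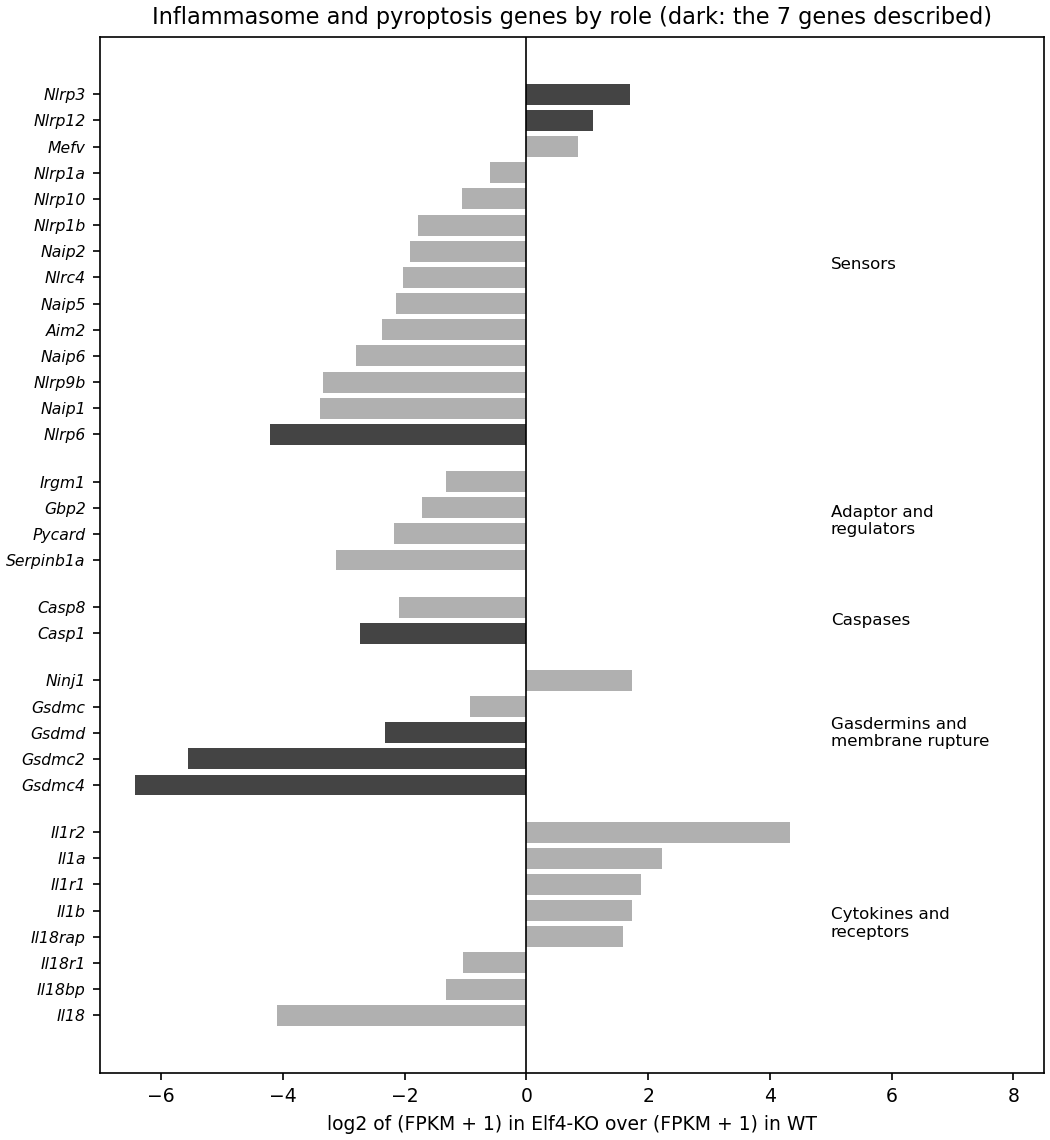
Log2 ratio of FPKM + 1 in Elf4-KO over WT (horizontal axis) for 33 of the 35 listed inflammasome and pyroptosis genes, ordered by role, with 1 bar per gene and the 7 genes described in dark. Bars point left for 24 genes, reaching -6.43 for Gsdmc4, and right for 9, reaching 4.34 for Il1r2.

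Over the 5 lists together, 35 of 56 genes were in the table, and 26 of the 35 fell (74.3%) while 9 rose (25.7%). The median log2 ratio was -1.78. Without the 7 genes described, 28 were listed, of which 21 were lower (75.0%) and 7 higher, with a median of -1.52. Among all listed genes 52.0% were lower and the median was -0.76. These lists were written with earlier results of these data known, so their direction is no independent evidence.

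Listed epithelial markers were all lower in Elf4-KO colon and most listed myeloid markers were higher, in a table where 52.0% of all listed genes were lower and 48.0% higher. The marker lists too were written with earlier results of these data known, so their direction is no independent evidence. Of 26 epithelial markers, 26 were listed and 26 were lower, with a median log2 ratio of -3.50, a summed level of 3180.1 FPKM in Elf4-KO colon and 28127 FPKM in WT colon, and none at 0. Agr2 and Krt19, which encode a mucin-folding protein and a keratin, fell 27.6-fold and 19.4-fold. Among 18 neutrophil markers, 16 were in the table and 14 of them rose (median 3.12), with a summed level of 4666 FPKM in Elf4-KO colon and 1255 FPKM in WT colon. Il1r2 is among these 14 and is also counted in the cytokine and receptor list. Mmp8, a collagenase gene, rose 54.0-fold and Ngp, a granule gene, rose 108-fold, with q = 0.000998 for Ngp in the authors' deposited table. The 2 exceptions, named for that reason after their values were seen, fell by folds near those of Casp1 and Gsdmd. The neutrophil surface gene Ly6g had 146 FPKM in Elf4-KO colon and 854 FPKM in WT colon, a 5.86-fold fall, and the granule gene Ltf had 2.05 FPKM in Elf4-KO colon and 14.4 FPKM in WT colon, a 7.01-fold fall. Of 19 macrophage markers, 9 were listed and 9 rose (median 1.65), with a summed level of 899.6 FPKM in Elf4-KO colon and 269 FPKM in WT colon. The other 10, among them Adgre1, Csf1r, Lyz2 and C1qa, were not in the table. No listed marker of either myeloid list was at 0. The scavenger receptor gene Marco rose 30.7-fold and the integrin gene Itgam rose 6.41-fold. In such whole tissue, fewer cells of a type and less RNA per cell cannot be told apart, and the part of cell makeup in the values of the 7 genes was not tested.

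**Figure D4:**
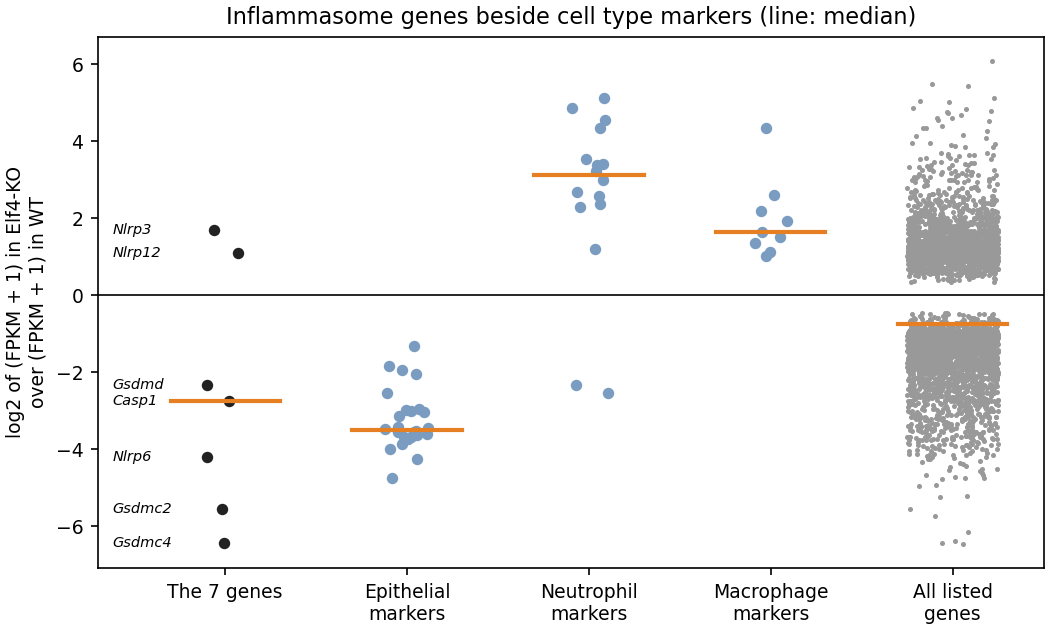
Log2 ratio of FPKM + 1 in Elf4-KO over WT (vertical axis) for the 7 genes, 26 epithelial, 16 neutrophil and 9 macrophage markers and all 4121 listed genes, with 1 point per gene and a line at each median. Nlrp6, Gsdmc2 and Gsdmc4 lie near or under the lowest epithelial markers, Casp1 and Gsdmd lie above the epithelial median of -3.50, and Nlrp3 and Nlrp12 lie among the lower macrophage markers or near their median of 1.65.

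Set beside the epithelial markers by fold, the 5 genes that fell lay on either side of the median marker. Both the genes and the markers were chosen with earlier results of these data known, so their places describe the table and test nothing. Nlrp6, Gsdmc2 and Gsdmc4 fell by more than each of the 26 epithelial markers, whose folds ranged from 2.60 (Cldn4) to 27.6 (Agr2). After adding 1 to each FPKM value this held for Gsdmc2 and Gsdmc4 but not for Nlrp6, whose log2 ratio of -4.21 lay above those of 2 markers, Agr2 (-4.76) and Krt19 (-4.26). Casp1 and Gsdmd fell by less than most of them, as 21 markers had a larger fall than Casp1 and 22 a larger fall than Gsdmd. Relative to Epcam, an adhesion gene of all epithelial cells that had 82.8 FPKM in Elf4-KO colon and 898 FPKM in WT colon, Gsdmc4 stood at 0.125 in Elf4-KO colon and 1.09 in WT colon. Nlrp6 stood at 0.0128 times the Epcam level in Elf4-KO colon and 0.0414 times in WT colon. The opposite was seen for the shared effectors, with Casp1 at 0.217 times the Epcam level in Elf4-KO colon and 0.140 in WT colon, and Gsdmd at 0.460 in Elf4-KO colon and 0.216 in WT colon. By fold, 13 of the 16 neutrophil markers and 3 of the 9 macrophage markers rose more than Nlrp3, and the same numbers rose more than Nlrp12. By log2 ratio after adding 1, 4 of the 9 macrophage markers lay above Nlrp3 and 8 above Nlrp12.

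Listed genes within 200 kb of the 7 genes are given beside a table where 52.0% of all listed genes were lower and 48.0% higher. The genes per locus are too few to set against these shares, and a locus with 1 listed gene can move in only 1 direction. Near Nlrp6 there were 9, of which 4 fell. They were Urah (16.7-fold, q = 0.0154 in the authors' deposited table), the desmosome gene Pkp3 (8.26-fold), Ano9 (14.7-fold) and Sigirr, an inhibitor of interleukin-1 family receptors, which had 3.76 FPKM in Elf4-KO colon and 15.3 FPKM in WT colon. The 5 that rose were the interferon-induced membrane protein genes Ifitm1, Ifitm2, Ifitm3 and Ifitm6, by 2.96-fold (Ifitm3) to 10.6-fold (Ifitm6), and Cyp2e1, by 7.64-fold. Ifitm2 lies 19.8 kb from Nlrp6 and had 1767 FPKM in Elf4-KO colon and 498 FPKM in WT colon. Near Gsdmd, the 4 listed genes Naprt, Pycrl, Tsta3 and Fam83h fell 3.36-fold (Tsta3) to 6.76-fold (Fam83h). Nlrp3 and Nlrp12 each had 1 listed neighbour, and both rose: Zkscan17 by 2.51-fold (q = 0.00156 in the authors' deposited table) and Cacng7 by 3.09-fold. Casp1 had none.

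The genes outside the 7 that were most like each of them in both levels were found by distance on the log2(FPKM + 1) scale over the 2 genotypes. For Nlrp6 they were Glod5 (distance 0.22) and Rnf186 (0.28), for Nlrp3 Peli2 (0.04), and for Nlrp12 Gm42595 (0.03) and Gm36445 (0.05). For Casp1 they were Maoa (0.10) and Ubd (0.20), and for Gsdmd Insl5 (0.01) and Car2 (0.06). The gasdermin C genes had no such close match outside the 7. A distance also depends on how many listed genes lie at similar levels, which was not examined. The nearest were Ighv9-2 (0.44) and Igkv12-38 (0.57) for Gsdmc2, and Pigr (1.28) and Gpx2 (1.42) for Gsdmc4. In the authors' deposited table, q was 0.0275 for Gm42595, 0.0111 for Gm36445, 0.00384 for Ighv9-2 and 0.00712 for Igkv12-38.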

How the data were processed

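Per the labels' protocols, colon was washed and frozen, RNA was taken up in Trizol and sequencing libraries came from a Vazyme mRNA kit. The submitters' processing notes name Bowtie 0.12.2, Cufflinks 2.2.1 and the build mm8 but not what each was used for. The deposited table holds, per the file headers, 1 FPKM value per genotype and the authors' p-value and q-value; by its values, listed genes had q of at most 0.05 and, within rounding, at least a 2-fold difference. No source used here says how the samples of a genotype were combined. Loci matched GENCODE M21 on GRCm38 (77.5% equal starts after adding 1), so coordinates are GRCm38, counted from 1. Whether a locus spans other protein-coding genes was checked for the pathway genes and Elf4, but not for markers, neighbours or nearest genes.

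From the deposited FPKM values, log2 ratios of Elf4-KO over WT were computed after adding 1, and folds without it. Lists are described by counts and medians, without a test. The genes and lists were chosen with earlier results of these data known. Named genes were the 7, all listed pathway genes, listed genes within 200 kb, the 2 nearest in level, and the 2 largest changes of each marker list with at least 1 FPKM. Other genes were named after their values were seen, and 3 genes that the rule names are not reported here. Ratios, ranks, motif matches and shared 50-base stretches were computed with Python 3.11.15, pandas 2.3.3, numpy 2.4.6, Biopython 1.88 and matplotlib 3.10.9, and the ratio, distance and motif steps were tested on simulated data. Alternatives were other pseudocounts, centring, a stricter q, a 4-fold limit and FPKM minimums.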

Additional observations from a re-analysis of the deposited data

How the results depend on the processing

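No paired analysis was possible because each genotype has a single combined value. Values without each replicate were not run for that reason, so the weight of 1 sample in any value cannot be given. A shift by over 1.5 times was counted as a move. No direction of the 7 genes turned under any alternative. This was fixed in advance. Centring on the negative table median only raises ratios, and the other alternatives leave the sign unchanged. Centring could turn only a fall weaker than that median, and the weakest fall of the 7 was -2.32 (Gsdmd). The log2 ratio of Nlrp12, 1.09 with a pseudocount of 1, was 1.99 with a pseudocount of 0.1, 2.21 with none and 1.85 when centred on the table median of -0.76; the other 6 moved by less. Asking for 5 FPKM or more in the higher genotype kept 1 of the 2 genes that rose, since Nlrp12 reached 2.10 FPKM. Keeping differences of at least 4-fold left 4 of 9 pathway genes that rose (Nlrp3, Nlrp12, Il1a and Il1r2) and 4 of 9 macrophage markers, by construction fewer. Low FPKM values such as those of Nlrp12 and Nlrp1a are limited by a depth that is unknown.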
